A study of Homo sapiens with 6 samples.

Results

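The histone deacetylase family was examined in the RNA-seq libraries of 3 NSCLC cell lines. Its members were the 10 genes HDAC1, HDAC2, HDAC3, HDAC4, HDAC5, HDAC6, HDAC7, HDAC8, HDAC9, and HDAC11, found by gene symbol among the 46427 genes of the expression table. The family was selected from the readout, since HDAC9 was known to be higher after si-MALAT1 in each cell line, so the changes of its members after si-MALAT1 are described without a test. The differences between cell lines played no part in that choice and were tested. Their error, though, is how far the change after si-MALAT1 varies between cell lines. HDAC9 was chosen on that change, so its p-values between cell lines are not fully independent of the choice. The 6 libraries compared were a control and a si-MALAT1 library for each of H460, H1299, and A549, which are established NSCLC cell lines. The labels give the treatment of the controls as non and of the others as siMALAT1 transfection, which targets MALAT1, a nuclear lncRNA. The methods describe both negative controls and cells given si-Control without saying which were sequenced, so if the controls were not transfected, an effect of transfection and one of the knockdown cannot be told apart. Each cell line and condition had 1 library, and nothing says whether the libraries of a cell line came from separate cultures.

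Histone deacetylases remove acetyl groups from lysines of histones and other proteins, which for histones generally goes with tighter chromatin and lower transcription. The zinc-dependent enzymes fall into class I (HDAC1, HDAC2, HDAC3, and HDAC8), class IIa (HDAC4, HDAC5, HDAC7, and HDAC9), class IIb (here HDAC6), and class IV (HDAC11). Class I enzymes work in the nucleus, most of them as the catalytic part of corepressor complexes, and class IIa enzymes move between cytoplasm and nucleus, bind MEF2 transcription factors, and have little catalytic activity of their own. HDAC6 is mainly cytoplasmic and deacetylates tubulin.

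The read counts summed to between 42506818 and 68515992 per library. Counts scaled to library size (CPM) were taken on TMM-scaled library sizes. MALAT1 was 2193 to 5682 CPM in the control libraries and 302 to 752 CPM in the si-MALAT1 libraries, lower in the si-MALAT1 library of each cell line. The epithelial keratins KRT8 and KRT18 ranged from 123 to 2918 TPM over the libraries, while EPCAM and CDH1 were at 0.776 TPM or less in H460 and H1299. PTPRC, CD3E, and CDH5, markers of leukocytes and endothelium, were listed at 0 in the 6 libraries. All 10 members passed the filter on low counts.

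HDAC9 (Gene ID 9734), the gene whose level varied by the largest ratio in the family, spans 916 kb of chromosome 7 in GRCh38, from 18086825 to 19002416 on the plus strand. The deposited annotation gives it 40 transcripts, of which 8 begin before position 18495460 and 32 begin at or after it. The read counts merge all of them, and HDAC9 is known to have short forms that lack the catalytic part. The windows below, taken from RefSeq (GRCh38.p14, plus strand), run from 250 bases before to 50 bases after an annotated start, and are shown because the gene-level count joins transcripts from both. The first is chr7:18086575-18086874 and the second, 409 kb further on, is chr7:18495499-18495798. Capitals mark each CG dinucleotide.
HDAC9 upstream start: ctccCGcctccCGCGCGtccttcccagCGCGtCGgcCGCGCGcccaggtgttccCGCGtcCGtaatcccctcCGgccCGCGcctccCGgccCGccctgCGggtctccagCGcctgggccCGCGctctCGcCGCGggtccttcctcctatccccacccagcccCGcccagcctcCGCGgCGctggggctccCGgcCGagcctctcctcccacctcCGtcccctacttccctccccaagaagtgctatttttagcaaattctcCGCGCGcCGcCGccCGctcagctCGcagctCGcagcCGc
HDAC9 internal start: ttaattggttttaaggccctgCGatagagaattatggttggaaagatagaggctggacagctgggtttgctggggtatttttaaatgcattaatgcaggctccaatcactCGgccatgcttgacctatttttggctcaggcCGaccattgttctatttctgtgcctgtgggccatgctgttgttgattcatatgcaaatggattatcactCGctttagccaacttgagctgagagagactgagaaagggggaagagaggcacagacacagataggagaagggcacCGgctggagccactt
The upstream window holds 41 CG dinucleotides and 75% G or C. The internal window holds 5 and 47.3%. Of 35116 RefSeq windows of the same length, 6.69% hold 41 or more CG dinucleotides and 70.4% hold 5 or more, with a median of 14. RefSeq starts were matched for 9 of the 10 members. HDAC5 was not among them.

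Levels of different genes were compared in TPM, which the authors scaled for transcript length. In these bulk libraries fewer cells that express a gene and less RNA per cell cannot be told apart. HDAC1 (Gene ID 3065), a catalytic subunit of the NuRD, SIN3, and CoREST complexes, had the highest TPM of the 10 genes in H1299 and A549. It was at 118 TPM in the control and 122 TPM in the si-MALAT1 library of H1299, at 64.6 and 67.0 TPM in A549, and at 21.2 and 23.1 TPM in H460. In H460 the highest member was HDAC3 (Gene ID 8841), the enzyme of the NCOR/SMRT complexes, at 27.9 TPM in the control and 30.4 TPM after si-MALAT1. HDAC3 was at 33.8 and 41.0 TPM in H1299 and at 34.4 and 37.9 TPM in A549. HDAC9 was the lowest member in H460, at 0.168 and 0.355 TPM, and in A549, at 0.438 and 0.694 TPM. In H1299 it was at 6.22 and 13.2 TPM, above HDAC4 and HDAC11 in both libraries, and HDAC4 was the lowest there, at 1.66 and 1.82 TPM.

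**Figure D1:**
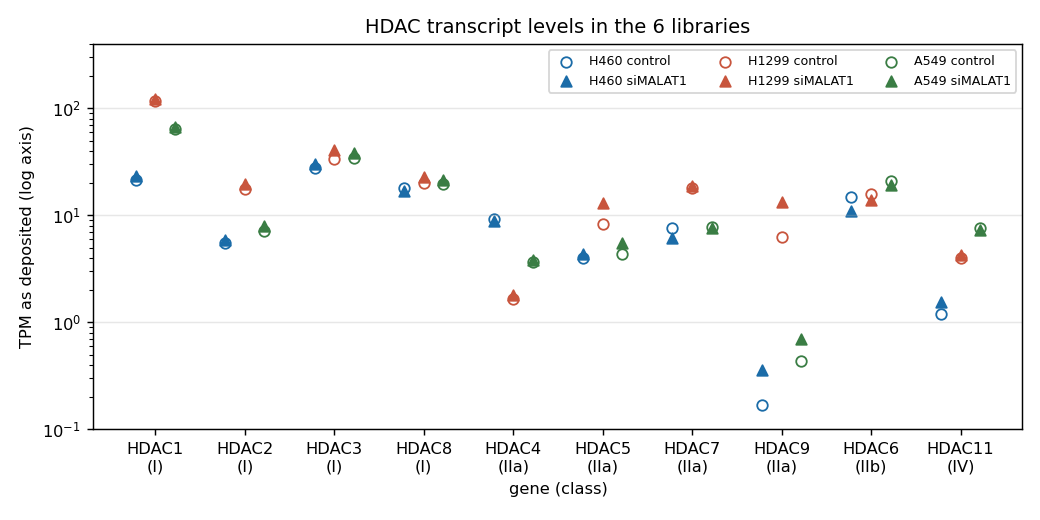
Transcript level in TPM (log axis) of the 10 histone deacetylase genes, ordered by class, with 1 point per library, open circles for control and filled triangles for si-MALAT1 libraries, and colours for cell lines. HDAC9 lies between 0.168 and 0.694 TPM in H460 and A549 and between 6.22 and 13.2 TPM in H1299, whereas HDAC3 lies between 27.9 and 41.0 TPM in all 6 libraries.

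The summed TPM of the 10 genes was 243.6 in the H1299 control and 270.2 in the si-MALAT1 library, 170.5 and 178.9 in A549, and 109.5 and 108.5 in H460. Class I genes made up most of it in each library, from 66.2% in the H460 control to 77.7% in the H1299 control. The class IIa share was 14.1% and 17.3% in H1299, 9.58% and 9.90% in A549, and 19.2% and 18.2% in H460, with the control first here and in each pair of values that follows. The class IIb share, which is HDAC6 alone, was 6.53% and 5.20% in H1299, 12.3% and 10.8% in A549, and 13.6% and 10.2% in H460. HDAC11, the class IV gene, took 1.09% to 1.63% in H460 and H1299 and 4.42% and 4.10% in A549. The leading class IIa gene also differed. HDAC4 was 44.3% and 45.1% of the class IIa TPM in H460, and HDAC7 was 52.8% and 40.0% of it in H1299 and 48.0% and 43.4% in A549. HDAC9 was 18.1% and 28.3% of the class IIa TPM in H1299, 2.68% and 3.92% in A549, and 0.801% and 1.80% in H460. With 1 library per condition these shares carry no error and were not tested.

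**Figure D2:**
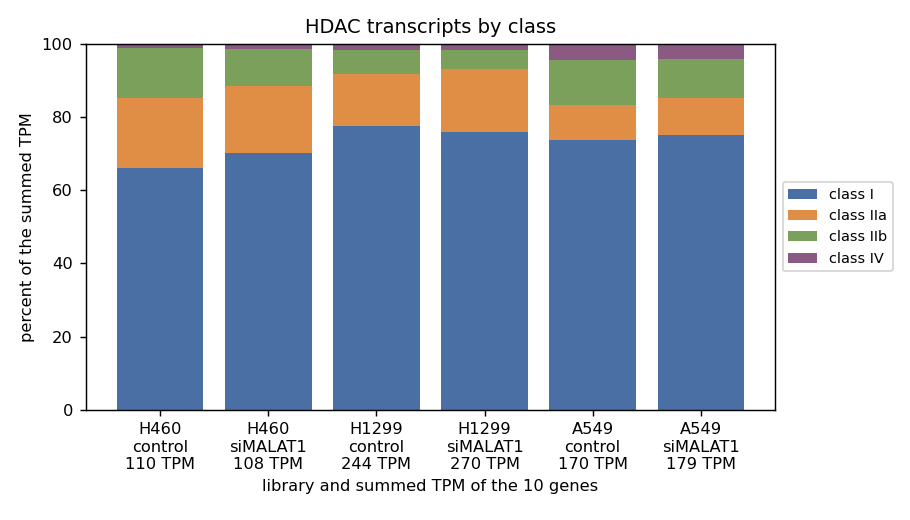
Share of the summed TPM of the 10 genes taken by each class (percent, stacked bars) in each library, with the summed TPM under each bar. Class I is the largest part in every library, and class IV is largest in A549, at 4.42% and 4.10%.

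The cell lines were then compared with edgeR's quasi-likelihood test on the read counts, with the treatment as a covariate, so that the control and the si-MALAT1 library stand as the 2 libraries of a cell line. Values below are CPM, and differences are log2 with the standard error. Of the 10 members, 6 were higher and 1 was lower in H1299 than in H460 at an adjusted p under 0.05, where 26% of the 19122 genes tested were higher and 26.6% lower. In A549 against H460, 3 were higher and 1 was lower, where 18.9% and 19.3% of all genes were. In H1299 against A549, 5 were higher and 3 lower, where 24.5% and 24.4% were. HDAC1, HDAC4, HDAC9, and HDAC11 differed in each of the 3 comparisons, as did 15.2% of all genes, and HDAC3 and HDAC8 differed in none, as did 30.6%.

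Of the 10 genes, HDAC9 had the largest differences. It had 1766 and 2927 reads in H1299, 69 and 145 in A549, and 52 and 112 in H460. These counts are 24.6 and 44.3 CPM in H1299, 1.61 and 3.03 CPM in A549, and 0.856 and 1.92 CPM in H460. Both H1299 libraries lay above all 4 libraries of the other cell lines, while H460 and A549 overlapped in CPM but not in the deposited TPM. HDAC9 was 25.5-fold higher in H1299 than in H460 (log2 difference 4.67 ± 0.19, adjusted p = 2.32e-05) and 15.0-fold higher than in A549 (3.90 ± 0.19, adjusted p = 4.48e-05). Between A549 and H460 the log2 difference was 0.77 ± 0.19 (adjusted p = 0.0224), which rests on at most 145 reads in a library. This last call was lost when H1299 was left out of the fit (adjusted p = 0.115) and without the treatment term (0.296), and over the alternatives its adjusted p ran from 0.0146 to 0.296. Without the treatment term, edgeR's adjusted p for HDAC9 in H1299 was 0.000549 against H460 and 0.00118 against A549.

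The other class IIa genes did not share one order. HDAC4 (Gene ID 9759, chromosome 2 from 239048168 to 239401649), like HDAC9 a partner of MEF2 factors, was highest in H460. It was at 13.4 and 13.6 CPM in H1299, 27.4 and 28.3 CPM in A549, and 85.3 and 85.0 CPM in H460, with no overlap between cell lines. The log2 difference was -2.66 ± 0.13 in H1299 against H460 (6.31-fold lower, adjusted p = 3.72e-05), -1.61 ± 0.13 in A549 against H460 (adjusted p = 0.000316), and -1.05 ± 0.13 in H1299 against A549 (adjusted p = 0.00115). HDAC5 (Gene ID 10014, chromosome 17) was at 35.9 and 52.9 CPM in H1299, 19.5 and 23.9 CPM in A549, and 20.3 and 24.4 CPM in H460. HDAC7 (Gene ID 51564, chromosome 12) was at 63.6 and 62.9 CPM in H1299, 29.6 and 28.0 CPM in A549, and 31.4 and 28.2 CPM in H460. In both genes the H1299 libraries lay above those of the other cell lines, which overlapped in CPM. In the deposited TPM the A549 libraries lay above those of H460 in both. HDAC5 was at 4.39 and 5.50 TPM in A549 and 3.97 and 4.34 TPM in H460. HDAC7 was at 7.83 and 7.69 TPM in A549 and 7.55 and 6.14 TPM in H460. Against H460 the log2 difference was 0.97 ± 0.14 for HDAC5 (adjusted p = 0.0022) and 1.09 ± 0.13 for HDAC7 (adjusted p = 0.000866), and against A549 it was 1.02 ± 0.15 (adjusted p = 0.00219) and 1.13 ± 0.13 (adjusted p = 0.000895). Between A549 and H460 neither passed the test, and the 95% intervals of the log2 difference were -0.40 to 0.31 for HDAC5 and -0.36 to 0.26 for HDAC7. HDAC7 overlaps exons of SLC48A1, which lies on the opposite strand with 625 to 3216 reads and fewer in the si-MALAT1 library of each cell line, and HDAC4 overlaps exons of its antisense gene HDAC4-AS1, with 15 to 129 reads. Whether reads were counted by strand is not given in the sources used here.

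Among the class I genes, HDAC1 and HDAC2, which share the same complexes, differed between cell lines, and HDAC3 and HDAC8 did not pass the test in any comparison. HDAC1 was at 202 and 197 CPM in H1299, 113 and 116 CPM in A549, and 43.3 and 51.1 CPM in H460. H1299 was 4.24-fold above H460 (log2 difference 2.08 ± 0.14, adjusted p = 0.000124) and 1.74-fold above A549 (0.80 ± 0.14, adjusted p = 0.00474). HDAC1 has pseudogene copies that could take some of its reads. HDAC2 (Gene ID 3066, chromosome 6) was at 135 and 136 CPM in H1299, 55.3 and 61.8 CPM in A549, and 50.9 and 58.4 CPM in H460. It was 2.49-fold higher in H1299 than in H460 (adjusted p = 0.000487), and the interval for A549 against H460 was -0.22 to 0.42 on the log2 scale. HDAC3 was at 52.2 to 60.2 CPM in H1299, 54.3 to 59.1 CPM in A549, and 51.6 to 61.0 CPM in H460. HDAC8 (Gene ID 55869, chromosome X), which deacetylates the cohesin subunit SMC3, was at 31.0 to 32.5, 30.2 to 33.7, and 30.4 to 34.6 CPM for H460, H1299, and A549. The ranges of the 3 cell lines overlapped for both genes in CPM. In the deposited TPM both H460 libraries lay below the other libraries. HDAC3 was at 27.9 and 30.4 TPM in H460, against 33.8 to 41.0 TPM in the others. HDAC8 was at 17.9 and 16.8 TPM in H460, against 19.5 to 22.9 TPM. Over the 3 comparisons the 95% intervals of the log2 difference lay within -0.32 and 0.32 for HDAC3 and within -0.34 and 0.35 for HDAC8.

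HDAC6 (Gene ID 10013, chromosome X) was at 53.0 and 44.6 CPM in H1299, 70.6 and 62.9 CPM in A549, and 56.5 and 46.3 CPM in H460. It was lower in H1299 than in A549 by a log2 difference of -0.46 ± 0.12 (adjusted p = 0.0247). In A549 against H460 it missed the threshold, with a log2 difference of 0.38 (95% interval 0.08 to 0.69, adjusted p = 0.0549). The call in H1299 against A549 was lost without the treatment term (0.0881), and over the alternatives its adjusted p ran from 0.00113 to 0.0881. HDAC11 (Gene ID 79885, chromosome 3), which also removes long-chain fatty acyl groups, was at 8.63 and 9.03 CPM in H1299, 16.8 and 16.5 CPM in A549, and 3.21 and 4.46 CPM in H460, with no overlap. It was 4.38-fold higher in A549 than in H460 (2.13 ± 0.21, adjusted p = 0.00073) and 2.32-fold higher in H1299 than in H460 (1.21 ± 0.21, adjusted p = 0.00368), and H1299 was below A549 by a log2 difference of -0.92 ± 0.20 (adjusted p = 0.0108). Its antisense gene HDAC11-AS1, which shares exon positions with it, had at most 22 reads.

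**Figure D3:**
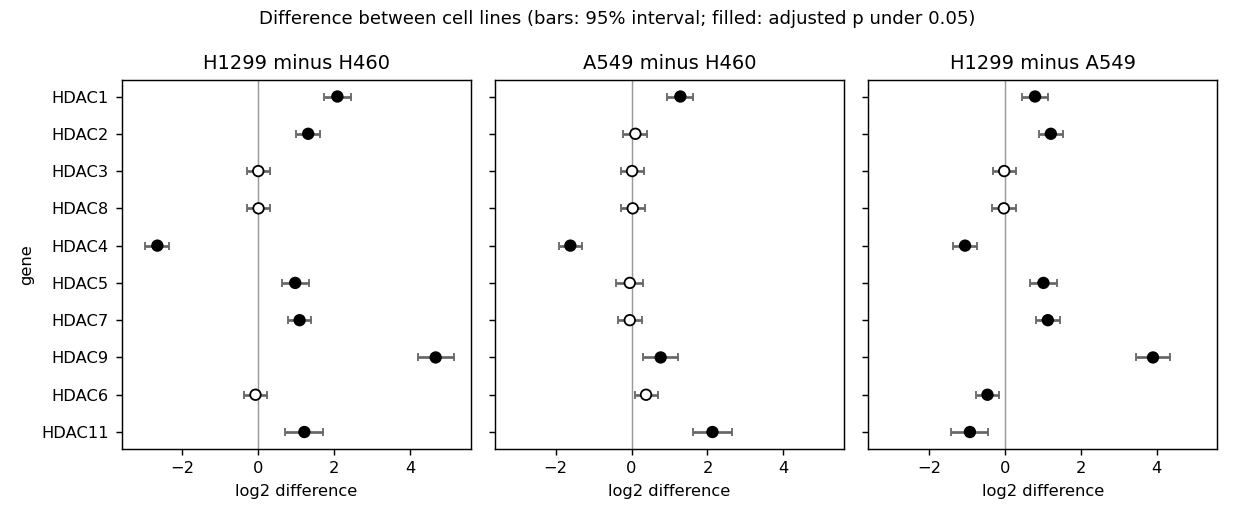
Log2 difference of each of the 10 genes between cell lines from the edgeR fit, 1 panel per comparison, with 95% intervals as bars and filled points where the adjusted p was under 0.05. HDAC9 stands at 4.67 and 3.90 in the comparisons with H1299, HDAC4 lies on the opposite side at -2.66 and -1.05, and HDAC3 and HDAC8 lie at 0 within their intervals.

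The nearest protein-coding genes on either side of HDAC9 were PRPS1L1, 59.0 kb before it, and TWIST1, 111 kb after it. PRPS1L1 was listed at 0 reads in the 6 libraries. TWIST1 (chromosome 7 from 19113047 to 19117636, minus strand), a transcription factor of mesenchymal cells, had 711 and 620 reads in H1299, 196 and 175 in A549, and 0 in both H460 libraries. Like HDAC9 it was higher in H1299 than in A549 (log2 difference 1.24, adjusted p = 0.0131), but TWIST1 was not higher after si-MALAT1, with log2 fold changes of -0.07 in H1299 and -0.31 in A549. Over the 6 libraries, the protein-coding genes whose log2 CPM followed HDAC9 most closely were TCEANC2, TBC1D32, RSBN1L, SMIM10L1, and FOXP2, with Pearson's r from 0.997 to 0.998 among 14122 genes. The 6 points are 3 pairs from the same cell lines, and r was above 0.99 for 38 genes. They also include the change after si-MALAT1 by which HDAC9 was chosen, so the r values are a description and were not tested. FOXP2, a forkhead transcription factor, had 502 and 1005 reads in H1299, 5 and 14 in A549, and 0 and 6 in H460. Among the other members, r with HDAC9 was 0.987 for HDAC2, 0.96 for HDAC5, 0.93 for HDAC7, and 0.86 for HDAC1. It was 0.17 to 0.25 for HDAC3, HDAC8, and HDAC11, -0.53 for HDAC6, and -0.86 for HDAC4.

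To describe the family after MALAT1 knockdown, log2 fold changes were taken within each cell line as si-MALAT1 minus control on log2 of the RLE-scaled read count plus 1, with the 95% Clopper-Pearson interval (exact binomial) for how the reads divide between both libraries, which covers counting error only. In these counts HDAC9 was the only member past a fold change of 1.5, and it was past it in each cell line. In the deposited TPM, HDAC5 was past it as well in H1299, at 1.55. In log2 of the scaled counts, HDAC9 was higher by 0.86 in H1299 (0.77 to 0.95), 0.92 in A549 (0.50 to 1.36), and 1.17 in H460 (0.70 to 1.69). These values chose the family and are no evidence for it. As background, 11.7% of 17834 genes were higher by at least 1.5-fold in H1299, 11.5% in A549, and 9.5% in H460, and 1.19% were in all 3. No member was lower by 1.5-fold in any cell line, where 11.4% of all genes were in H1299, 11.4% in A549, and 10.3% in H460, and 1.28% were in all 3.

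At any size, 6 of the 10 members were higher in all 3 cell lines (HDAC2, HDAC3, HDAC8, HDAC4, HDAC5, and HDAC9) and 2 were lower in all 3 (HDAC6 and HDAC7), against 21.4% and 18.8% of the 17834 genes. In the deposited TPM, 5 were higher in all 3 (HDAC1, HDAC2, HDAC3, HDAC5, and HDAC9) and 1 was lower (HDAC6), so the directions of HDAC1, HDAC4, HDAC7, and HDAC8 depended on the unit in at least 1 cell line. Nothing is read from these counts, since the same contrast chose the family. HDAC5 was next to HDAC9 in size. It had 2574 and 3491 reads in H1299, where the fold change of 1.48 was just under 1.5, 832 and 1143 in A549, and 1234 and 1420 in H460. The log2 fold changes were 0.57 (0.50 to 0.64) in H1299, 0.31 (0.18 to 0.44) in A549, and 0.28 (0.17 to 0.40) in H460. The mean was 0.39 ± 0.16 (SD, n = 3). HDAC4 and HDAC7, the other class IIa genes, had means of 0.04 ± 0.03 and -0.06 ± 0.06, and none of the 3 counting intervals of HDAC4 left 0. The class IIa genes ranged from -0.13 to 1.17 in H460, -0.004 to 0.86 in H1299, and -0.06 to 0.92 in A549. The upper end is each time HDAC9, by which the family was chosen, with HDAC5 next. The class I genes ranged from 0.09 to 0.27, -0.02 to 0.22, and 0.06 to 0.21 in that order.

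HDAC6 had 3799 and 2944 reads in H1299, 3435 and 2698 in H460, and 3020 and 3011 in A549, where the si-MALAT1 library was deeper. The log2 fold changes were -0.24 (-0.31 to -0.17) in H1299, -0.27 (-0.34 to -0.19) in H460, and -0.15 (-0.22 to -0.08) in A549, so each counting interval lay below 0. HDAC3 was the class I gene whose 3 intervals all lay above 0, with log2 fold changes from 0.14 in A549 to 0.27 in H460 and a mean of 0.21 ± 0.06 (SD, n = 3). HDAC1 had -0.02 in H1299 (-0.06 to 0.01), 0.06 in A549 (0.00 to 0.11), and 0.26 in H460 (0.19 to 0.34). HDAC11 had 0.49 in H460 (0.22 to 0.77), from 195 to 260 reads, and 0.08 and -0.00 in H1299 and A549. HDAC2 had 0.22, 0.02, and 0.18 and HDAC8 had 0.09, 0.17, and 0.21 in H460, H1299, and A549, and for each of them 1 of the 3 counting intervals included 0. The median over the 10 members was 0.05 in H1299, 0.10 in A549, and 0.24 in H460, against 0.02, 0.01, and 0.02 over the 17834 genes in that order.

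**Figure D4:**
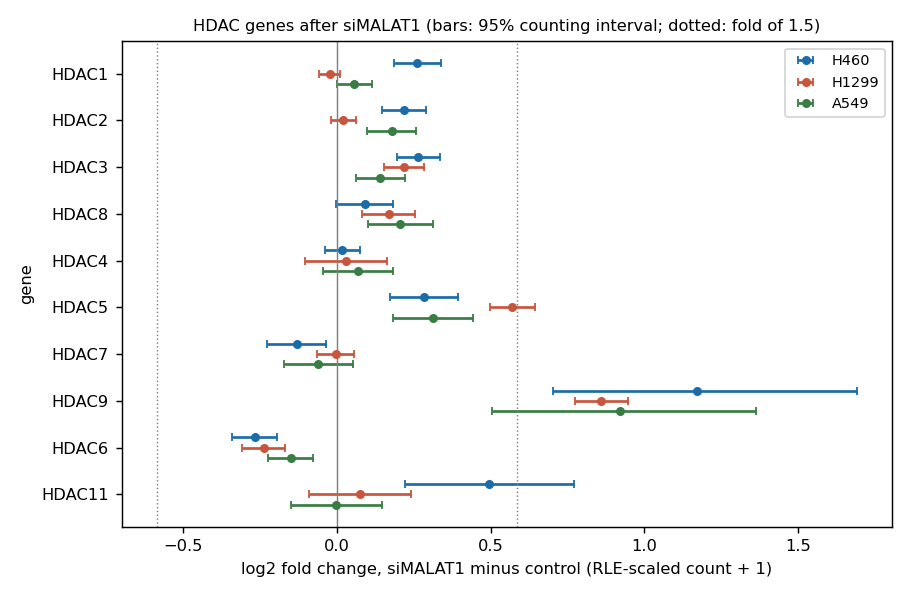
Log2 fold change of each of the 10 genes after si-MALAT1 within each cell line (points), with 95% counting intervals (bars) and dotted lines at a fold change of 1.5. HDAC9 lies past the dotted line in the 3 cell lines, at 0.86 to 1.17, the 3 values of HDAC6 lie between -0.27 and -0.15, and the other members lie between -0.13 and 0.57.

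The partners of these enzymes were described with 11 lists drawn from general knowledge, of which 69 genes had reads in every library. Of these, 0 were higher and 2 lower by at least 1.5-fold in all 3 cell lines, against 1.19% and 1.28% of all genes. The median log2 fold change of the 69 genes was 0.04 in H1299, 0.01 in A549, and -0.04 in H460. The 2 lower genes were TBL1XR1 and YWHAH. TBL1XR1, which joins HDAC3 in the NCOR/SMRT complexes, had log2 fold changes of -0.82, -1.01, and -1.25 in H460, H1299, and A549. YWHAH, a 14-3-3 protein of the group that holds class IIa enzymes in the cytoplasm, had 4361 and 2582 reads in H1299, 2832 and 1746 in A549, and 5216 and 2860 in H460. Its log2 fold changes were -0.62, -0.84, and -0.79 in that order. The member with the largest mean change in the NuRD list was RBBP4, a histone-binding subunit shared with SIN3 complexes, at -1.08 in H1299, -1.09 in A549, and -0.47 in H460. In H460, H1299, and A549, KAT2B, an acetyltransferase, which adds the group that these enzymes remove, had -0.58, -0.85, and -1.12. RCOR2 of the CoREST list had -0.41, -1.72, and -0.83.

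In the other lists the largest mean changes were smaller. MEF2A, a transcription factor bound by class IIa enzymes, had log2 fold changes of 0.80 in H1299, 0.55 in A549, and 0.08 in H460. Averaged over H460, H1299, and A549, the log2 fold change stood at 0.35 ± 0.15 (SD, n = 3) for ARID4B of the SIN3 list, -0.39 ± 0.35 for the sirtuin SIRT3, and -0.24 ± 0.28 for MIDEAS of the MiDAC list. It was 0.24 ± 0.22 for the tubulin acetyltransferase ATAT1, which opposes HDAC6, and 0.06 ± 0.11 for the BET reader BRD3. With the cell lines as 3 pairs, which leaves 2 residual degrees of freedom, edgeR called 0 of the 69 genes between si-MALAT1 and control, and 0.00523% of all 19122 genes, which is MALAT1 alone. At an unadjusted p under 0.05 there were 2 partner genes higher and 7 lower, where 7.38% and 7.59% of all genes were. DESeq2 called 6 of the 69, namely RBBP4, YWHAH, KAT2B, MTA2, ARID4B, and TBL1XR1, and 10.2% of the 13117 genes to which it gave an adjusted p.

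The words TGAATCA and ATGAATC, which an earlier analysis of these data picked out in 3' UTRs of genes that fell, were counted on the transcript strand of the canonical GENCODE transcripts (GRCh38). They overlap each other by 6 bases. Neither occurs in the 3' UTR of any of the 10 members, although those of HDAC2 and HDAC9 are 8030 and 6354 bases long, against a median of 1314.5 bases over 13796 tested genes, of which 17.5% hold either word. Among the 69 partner genes, 15.9% hold one, and of the 11 named above for their fold changes, TBL1XR1 holds 6 copies, RBBP4 holds 2, and KAT2B and SIRT3 hold 1 each. YWHAH, RCOR2, MIDEAS, ARID4B, MEF2A, ATAT1, and BRD3 hold none. The 3' UTRs of TBL1XR1 and RBBP4 are long as well, at 6154 and 6506 bases, and those of KAT2B and SIRT3 have 1879 and 1668. Among the named genes without a word they run from 178 bases in ATAT1 to 3721 in MIDEAS. The copies were not adjusted for length. A word is a description of the sequence and not a shown site. Both the words and these 11 genes were chosen on changes after si-MALAT1 in these data. Copies of a word in the genes that fell are therefore no evidence for the words.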

How the data were processed

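Total RNA of 3 NSCLC cell lines was sequenced after removal of ribosomal RNA with a stranded kit. After trimming with Trimmomatic, the authors mapped reads to hg38 using HISAT2 2.1.0 and estimated abundances per gene with StringTie on an NCBI annotation, for which the processing notes give version 1.3.4b and the methods another. The deposited read counts are whole numbers and not normalized, and the deposited FPKM and TPM were scaled by the authors for length and depth. The deposited exon coordinates (GRCh38) were used for positions, and another 18 columns of per-sample values belong to no sample of this series and were not used.

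Samples were grouped by the treatment label and paired by cell line. Deviations from the group means of log2 CPM correlated within cell lines with r = 0.88 to 0.92 over 19122 genes. Counts were fitted over the whole table with edgeR 4.0.16 (TMM, filterByExpr, quasi-likelihood test, cell line and treatment as terms), and p-values were Benjamini-Hochberg adjusted over all genes tested, with a threshold of 0.05. Standard errors and 95% intervals follow from the F statistic and are not adjusted for multiple tests. Fold changes within a cell line used genes with at least 1 read in each library. The treatment term removes the mean change from control to si-MALAT1. A p-value between cell lines therefore sets a difference against how far that change varies between cell lines. It does not measure the spread between cultures of a cell line. The alternatives were RLE scaling, no filter, DESeq2 1.42.0, no block, no treatment term, other pseudocounts and units, and leaving out each cell line. Precision is limited by 42506818 to 68515992 reads per library and 1 library per condition. The genes named were the members, genes of a partner list past a fold change of 1.5 in all 3 cell lines or with the largest mean change of the list at a mean read count of at least 50, neighbours of and exon overlaps with members, and the 5 genes most like HDAC9. MTA2 was named after its value was seen. The members and lists were chosen with earlier results of these data known. Analyses used R 4.3.3 and Python 3.11.15.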

Additional observations from a re-analysis of the deposited data

How the results depend on the processing

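The number of genes called between si-MALAT1 and control was 1 and depended on the settings: it was 0 without the low-count filter, 1333 with DESeq2 (695 higher and 638 lower), and from 0 to 163 when a cell line was left out, where the 163 came without H460. Without the cell line as a block, 0 genes were called, against 1 with it; the labels pair both libraries of a cell line. The members called between cell lines numbered the same within 1.5 times under every alternative run. Of 150 tested values of single members between cell lines under an alternative, 139 kept their direction and side of the threshold, 3 lost the call (HDAC9 in A549 against H460 under 2 alternatives and HDAC6 in H1299 against A549 under 1), 3 gained it (HDAC6 in A549 against H460), and 5 that were not called changed sign close to 0. These were HDAC3 in H1299 against H460, at 0.0056 with RLE, 0.011 without the filter, and 0.011 with DESeq2, HDAC3 in H1299 against A549 at 0.0095 without the filter, and HDAC8 in H1299 against H460 at -0.0096 without A549. The 30 differences between control libraries alone have no test. HDAC6 in A549 against H460, at an adjusted p of 0.0549, ran from 0.00739 to 0.166. With a log2 fold change of 1 as the threshold, 0 members passed in H1299 and 0 in A549, where HDAC9 had passed 1.5-fold. With log2(TPM + 1), the mean log2 fold change of HDAC9 was 0.48 in place of 0.98 and that of HDAC8 was 0.08 in place of 0.16; without the added 1 the mean log2 TPM ratios were 0.94 and 0.09. With the ratio of the deposited TPM, chosen after seeing the data, 2 members were at least 1.5-fold higher in H1299 in place of 1, and 1 was lower in all 3 cell lines in place of 2. Class shares moved by less than their SD over the libraries under every alternative run, including one with HDAC10 counted, chosen after seeing the data. A comparison of cell lines could not be fitted when either of them was left out.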

Other observations

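HDAC10 (Gene ID 83933), a class IIb gene that was not among the members, had 1017 reads in the H1299 control and 1021 in the si-MALAT1 library, 94 and 100 in A549, and 559 and 479 in H460. In CPM these are 14.2 and 15.5 for H1299, 2.20 and 2.09 for A549, and 9.20 and 8.22 for H460. HDAC10 was thus lowest in A549, where HDAC11 was highest.

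The fold of HDAC9 after si-MALAT1 differed between the units the authors deposited. The TPM ratio was 2.13 for H1299, 1.58 for A549, and 2.11 for H460. The RLE-scaled counts gave ratios of 1.81, 1.89, and 2.25 for them, so H1299 was the largest of the 3 in TPM and the smallest in counts. Which transcripts of HDAC9 gave the reads was not tested. The noncoding gene LOC107986698, which lies within HDAC9 on the same strand without sharing its exons, had 149 and 180 reads in H1299 and at most 30 in the other libraries.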
